A study of Homo sapiens with 6 samples.

Results

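RNA levels of 48 cell cycle genes were followed through all 6 libraries of MDA-MB-231 cells lacking the kinases MRCKα (gene CDC42BPA), MRCKβ (CDC42BPB) or both, as a readout of proliferation. The genes were taken by symbol from a given list, and 48 of the 48 were found among the 17064 genes of the expression table. They comprise 36 genes of mitosis and cytokinesis, called G2/M genes here, and 12 genes of the G1/S transition and DNA replication. MDA-MB-231 is an established human line of epithelial cells from a metastatic breast tumour. MRCKα and MRCKβ are related serine/threonine kinases that bind active CDC42 and act on actomyosin. The groups were a vector control (2 libraries, from separate transductions of the empty vector), MRCKα KO (1 library), MRCKβ KO (1 library) and double knockout (DKO, 2 libraries, made with either the first or the second guide RNA for each gene). All 6 cultures, the controls included, had passed through lentiviral transduction with lentiCRISPRv2 and drug selection, and they were analysed as pools without clone picking. RNA was taken from subconfluent cultures. The sources used here do not say which guide made each single knockout. Single knockouts have no replicate, so their intervals cover counting error only, not the spread between cultures, and they have no p-value. The p-values for DKO measure only the spread between these libraries.

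Most of these genes are transcribed periodically. Genes of the G1/S transition are driven by E2F factors once the retinoblastoma protein is released, whereas many mitotic genes are switched on later through CHR elements and CCAAT boxes in their promoters, which bind the DREAM and MMB complexes with B-MYB and FOXM1, and NF-Y. A culture with more cycling cells therefore holds more of these RNAs. In bulk RNA, fewer cells in a phase and less RNA per cell cannot be told apart.

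Promoters of the members are described first, since sequence is a property that the list of members did not use. A promoter of 300 bases (250 before to 50 after the RefSeq start, build GRCh38.p14) was given for 38 of the 48 genes. The search covered both strands for the CHR (TTTGAA), the CCAAT box (CCAAT) and an E2F type motif (TTCCCGC as its first form, TTCGCGC as its second form or TTGGCGC as its last form). Of 29 G2/M promoters, 19 (65.5%) held a CHR, 23 (79.3%) a CCAAT box and 17 (58.6%) both, against 15.4%, 35.7% and 6.08% of all 27305 promoters in the table. An E2F type motif stood in 8 (27.6%). Among the 9 G1/S promoters the E2F type motif was the most frequent, with a CHR in 0, a CCAAT box in 6 (66.7%) and an E2F type motif in 7 (77.8%), against 11.2% of all promoters. A match describes letters only. The 150 bases before the start are printed for 4 G2/M genes and 3 G1/S genes, 5′ to 3′ on the coding strand. The printed genes are picked examples, and the 4 G2/M genes are all among the 17 with both a CHR and a CCAAT box. Capitals mark a CHR, a CCAAT box (ATTGG on the other strand) or an E2F type motif (for example GCGGGAA on the other strand), and in MKI67 a CHR and a CCAAT box overlap.
MKI67, chr10:128126424-128126573, minus strand: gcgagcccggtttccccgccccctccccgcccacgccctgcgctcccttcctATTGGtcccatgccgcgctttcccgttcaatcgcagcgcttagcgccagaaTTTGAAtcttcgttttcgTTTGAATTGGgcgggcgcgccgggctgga
CCNB2, chr15:59104996-59105145, plus strand: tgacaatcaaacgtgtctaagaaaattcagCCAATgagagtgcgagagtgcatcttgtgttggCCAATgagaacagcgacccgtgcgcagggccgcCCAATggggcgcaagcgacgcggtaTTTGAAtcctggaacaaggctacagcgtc
CDC20, chr1:43358831-43358980, plus strand: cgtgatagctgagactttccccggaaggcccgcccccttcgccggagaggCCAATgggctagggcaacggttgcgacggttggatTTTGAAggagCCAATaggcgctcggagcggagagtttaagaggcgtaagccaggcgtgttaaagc
KIF23, chr15:69414199-69414348, plus strand: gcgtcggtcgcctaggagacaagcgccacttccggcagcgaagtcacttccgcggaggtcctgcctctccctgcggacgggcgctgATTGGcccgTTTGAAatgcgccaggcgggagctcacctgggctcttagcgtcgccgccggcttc
TYMS, chr18:657503-657652, plus strand: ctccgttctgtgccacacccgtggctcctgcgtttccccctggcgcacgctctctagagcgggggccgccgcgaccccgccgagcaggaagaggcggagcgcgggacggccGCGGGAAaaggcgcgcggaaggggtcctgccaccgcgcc
RRM2, chr2:10122589-10122738, plus strand: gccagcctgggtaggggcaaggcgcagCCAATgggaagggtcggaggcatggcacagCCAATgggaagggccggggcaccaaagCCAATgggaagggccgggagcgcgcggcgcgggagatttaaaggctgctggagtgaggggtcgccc
MCM7, chr7:100101398-100101547, minus strand: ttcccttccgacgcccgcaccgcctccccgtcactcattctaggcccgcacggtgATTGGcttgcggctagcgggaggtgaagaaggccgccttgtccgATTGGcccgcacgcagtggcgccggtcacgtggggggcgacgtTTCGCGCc

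CCNB2, CDC20 and KIF23 showed CHR and CCAAT motifs within the printed stretch, as did MKI67. In the same stretch TYMS held only an E2F type motif and RRM2 only CCAAT boxes, 3 in all, while MCM7 held both kinds.

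All members were expressed in every library. FPKM, the reads of a gene scaled to its transcript length and to the depth of the library, ran from 5.04 for CCNE1 in MRCKβ KO to 295 for PTTG1 in vector 2. By mean FPKM 26 of the 48 lay in the top 10% of the 13764 genes kept by an expression filter. The lowest, CCNE1, stood at percentile 42.8 of these genes. Counts ran from 101 for CCNE1 to 9979 for MKI67, and 36 members had at least 1000 in every library. The 4 members with under 500 in some library were CDC25C, CENPA, CCNE1 and CCNE2, for which counting error is largest. Library totals lay between 10349898 and 10657857 expected counts.

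**Figure D1:**
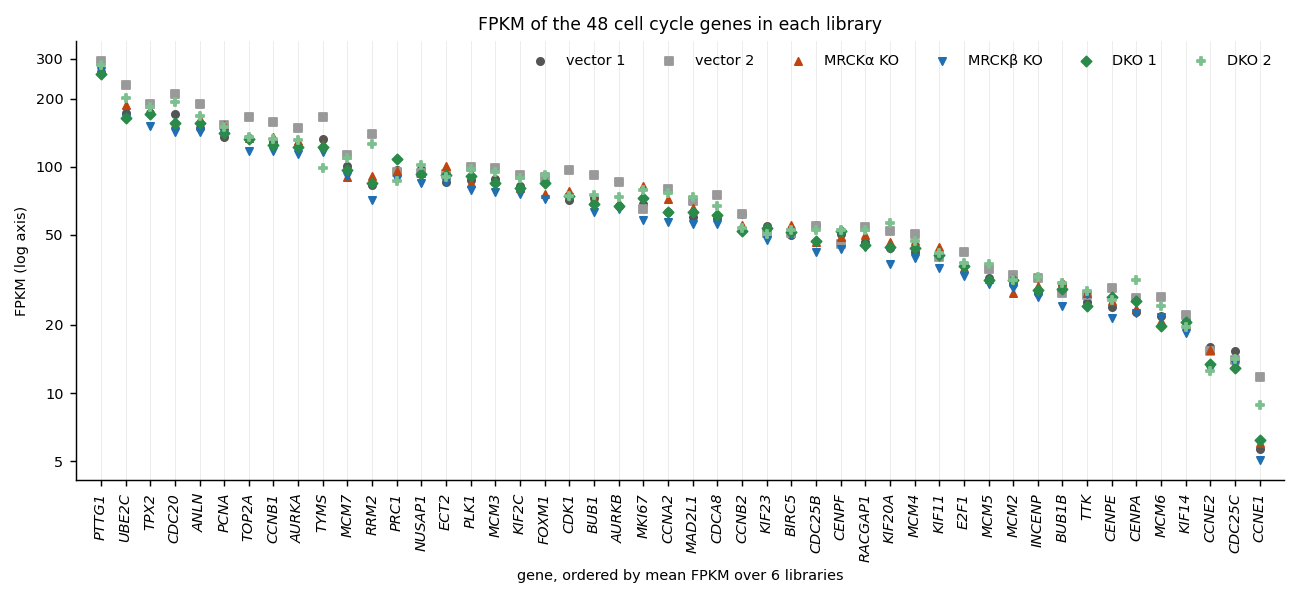
FPKM of each of the 48 genes in the 6 libraries on a log axis, ordered by mean FPKM, with 1 point per library. The points of a gene lie close together beside the range between genes, except for RRM2 and CCNE1, whose libraries spread most.

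Library identity checks were limited. RNA of the targeted genes was present in every library, CDC42BPA at 23.3 to 36.4 FPKM and CDC42BPB at 23.4 to 30.3 FPKM, and since an edited gene can still be transcribed these levels do not test the knockouts. All 5 markers of a mesenchymal-like breast line were expressed, VIM (vimentin) at 1532 to 2052 FPKM, and 4 of 7 luminal markers exceeded 1 FPKM in some library, with a summed level of 297 to 403 FPKM. Most of that sum was KRT8 and KRT18, the keratins of simple epithelia, at 138 to 220.1 and 153 to 189 FPKM, with GATA3 at 2.59 to 4.18 and EPCAM at 0.73 to 2.62 FPKM, while ESR1, PGR and CDH1 stayed under 1 FPKM. In the lists of other cell types, 2 of 5 fibroblast, 3 of 4 leukocyte and 2 of 4 endothelial markers exceeded 1 FPKM in some library. Their lists had summed levels of 3.73 to 10.4, 7.11 to 9.34 and 2.22 to 3.78 FPKM. Those past 1 FPKM were COL1A1 (2.04 to 3.26), PDGFRB (1.14 to 5.90), LYZ (5.63 to 8.87), PTPRC (0.28 to 1.24) and CD14 (0.13 to 1.23). The endothelial markers past it were PECAM1 (0.93 to 1.88) and KDR (1.26 to 2.04). CD3E, VWF, CDH5 and LUM lay at or near 0.

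The clearest pattern lay in MRCKβ KO, where RNAs of the 48 members were almost uniformly lower by a small amount. Of 48 members 44 lay below both vector libraries and 1 above both, against 28.8% and 30.4% of the 13764 genes kept by the expression filter. MRCKβ KO was the lowest of the 6 libraries for 36 of 48, against 16.2% of all genes, and it was the highest for 0. The median log2 ratio of FPKM to the vector mean was -0.23, with single genes between -0.79 and 0.06, where the median of all genes was 0.00. The medians were -0.23 for G2/M and -0.24 for G1/S members. With 1 library, this describes that culture and carries no test. The DKO libraries also lack MRCKβ, and there the members' median log2 FPKM ratio was -0.04 (all genes 0.02). Both DKO libraries lay below both vector libraries for 5 members and above both for 3, against 12.2% and 17.0% of all genes. In the paper's confluency assay, a different measure, the knockout lines grew at a rate similar to control cells.

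**Figure D2:**
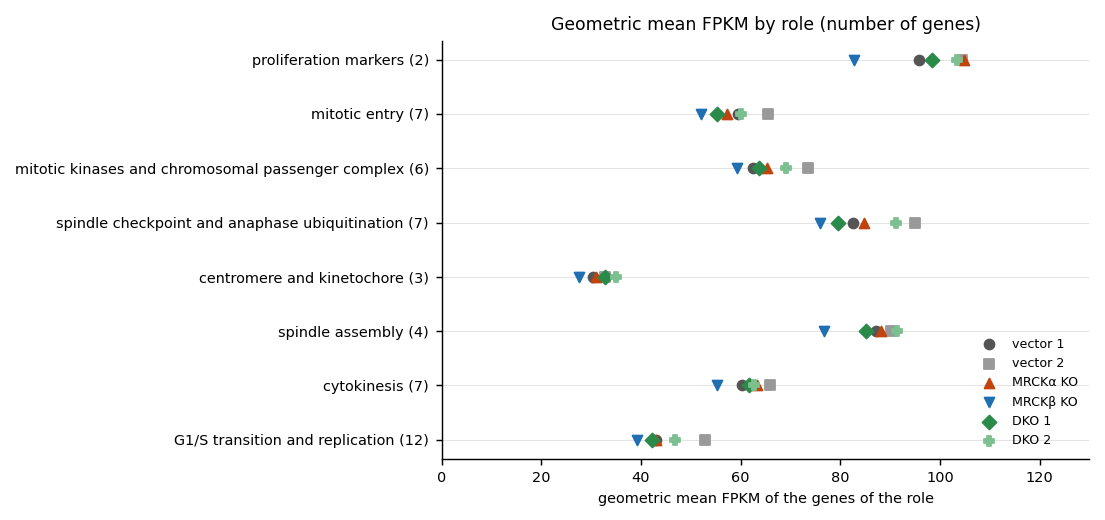
Geometric mean FPKM of the members of each role in the 6 libraries, with 1 point per library. MRCKβ KO sits lowest in every role, and vector 2 lies above vector 1 in every role.

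The proliferation markers open the account by role, in which levels of single genes are in FPKM. MKI67, which encodes the Ki-67 antigen of cycling cells, had 68.7 and 65.4 FPKM with the empty vector, 82.2 without MRCKα, 58.3 without MRCKβ, and 72.9 and 79.2 without both. Its MRCKα KO value stood above and its MRCKβ KO value below both vector values. TOP2A, the topoisomerase that untangles replicated chromosomes, read 134 (vector 1) and 167 (vector 2), 134 without MRCKα, 118 without MRCKβ, and 133 (DKO 1) and 135 (DKO 2). Only vector 2 stood apart on the high side, and MRCKβ KO was lowest. Per total reads, the log2 ratio of MRCKβ KO to the pooled vector reads was -0.21 (95% interval -0.25 to -0.17) for MKI67 and -0.34 (95% interval -0.38 to -0.30) for TOP2A, and such log2 ratios are called read ratios in what follows.

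Among the 7 genes of mitotic entry, 6 lay below both vector libraries in MRCKβ KO and 4 in MRCKα KO (28.8% and 26.7% of all genes). CCNB1, the cyclin that activates CDK1 at mitosis, read 129 (vector 1) and 157 (vector 2), 135 without MRCKα, 117 without MRCKβ, and 125 (DKO 1) and 133 (DKO 2). For CCNB2, the related B-type cyclin, the levels were 61.8 (vector 1) and 61.8 (vector 2), 55.6 without MRCKα, 51.95 without MRCKβ, and 52.01 (DKO 1) and 53.6 (DKO 2), so that both vector values exceeded all 4 knockout values. CDK1, the mitotic kinase itself, had 71.6 and 96.8 FPKM with the empty vector, 78.1 without MRCKα, 73.5 without MRCKβ, and 74.4 and 74.5 without both. Here vector 2 alone was high and the other 5 libraries lay together. CDC25B and CDC25C encode phosphatases that activate CDK1. CDC25B read 55.5 (vector 1) and 54.6 (vector 2), 46.5 without MRCKα, 42.01 without MRCKβ, and 47.2 (DKO 1) and 52.6 (DKO 2), below the vector values in each knockout library. CDC25C, at a low level, ran from 12.8 to 15.4 FPKM over the 6 libraries. CCNA2, the cyclin of S phase and early mitosis, ran from 57.01 in MRCKβ KO to 80.1 in vector 2. FOXM1, a transcription factor of mitotic genes, ran from 72.1 in MRCKβ KO to 91.6 in DKO 2.

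The 6 mitotic kinases and chromosomal passenger genes were all below both vector libraries in MRCKβ KO (28.8% of all genes). For all 6 vector 2 exceeded vector 1 and DKO 2 exceeded DKO 1 (49.1% and 51.7% of all genes). PLK1, a kinase of centrosome maturation and mitotic exit, read 87.2 (vector 1) and 99.8 (vector 2), 85.2 without MRCKα, 79.01 without MRCKβ, and 91.2 (DKO 1) and 97.6 (DKO 2). AURKA, the spindle pole kinase, had 123 and 148 FPKM with the empty vector, 131 without MRCKα, 114 without MRCKβ, and 122 and 132 without both. AURKB, INCENP, BIRC5 (survivin) and CDCA8 (borealin) form the passenger complex that corrects kinetochore attachment and stays at the midzone. AURKB read 66.98 (vector 1) and 85.4 (vector 2), 69.2 without MRCKα, 64.9 without MRCKβ, and 67.1 (DKO 1) and 73.4 (DKO 2). BIRC5 varied least of the 6, between 50.1 and 55.4 FPKM, with MRCKβ KO only just under vector 1 (50.2). INCENP ran from 26.6 to 32.7 and CDCA8 from 56.1 to 74.99 FPKM, both lowest in MRCKβ KO.

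The spindle checkpoint and anaphase genes held the only member above both vector libraries in MRCKβ KO, TTK, at 27.4 against 25.2 and 27.2 FPKM. Its read ratio was 0.06 (95% interval -0.06 to 0.17), an interval that includes 0. On the scale of TMM-normalised CPM (counts scaled to library size without transcript length) 0 members lay above both, against 4146 of the 13764 genes kept. TTK (MPS1) recruits the checkpoint proteins to unattached kinetochores. BUB1, a checkpoint kinase, read 72.8 (vector 1) and 92.5 (vector 2), 72.03 without MRCKα, 63.2 without MRCKβ, and 68.6 (DKO 1) and 75.3 (DKO 2). BUB1B, which encodes BUBR1, ran from 24.3 in MRCKβ KO to 31.1 in MRCKα KO, and MAD2L1, the MAD2 inhibitor of the anaphase-promoting complex, from 55.7 in MRCKβ KO to 73.9 in DKO 2. CDC20, the activator of that complex, had 172 and 209.8 FPKM with the empty vector, 155 without MRCKα, 142 without MRCKβ, and 156 and 193 without both. Both single knockouts lay below both vector values, with read ratios of -0.30 (95% interval -0.36 to -0.23) in MRCKα KO and -0.43 (95% interval -0.49 to -0.36) in MRCKβ KO. UBE2C, its ubiquitin-conjugating enzyme, read 173 (vector 1) and 229.8 (vector 2), 187 without MRCKα, 165 without MRCKβ, and 164 (DKO 1) and 201 (DKO 2). PTTG1 (securin), the highest member, ran from 257 in DKO 1 to 295 in vector 2.

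The 3 centromere and kinetochore genes and the 4 spindle assembly genes were, by FPKM, all lowest in MRCKβ KO. CENPA, the centromeric histone H3 variant, read 22.9 (vector 1) and 26.3 (vector 2), 23.6 without MRCKα, 22.5 without MRCKβ, and 25.4 (DKO 1) and 31.5 (DKO 2), highest in DKO 2. CENPE, a kinetochore motor, ran from 21.4 to 29.2 FPKM. CENPF, a kinetochore and matrix protein, was higher in both DKO libraries (51.9 and 52.5) than in both vector libraries (50.4 and 45.5). Of the spindle assembly genes, KIF11 (Eg5), which pushes spindle poles apart, ran from 35.7 to 44.2 FPKM. KIF2C (MCAK), a microtubule depolymerase, ran from 75.7 to 92.2 FPKM. TPX2, the activator of Aurora A, ran from 151 to 189.8, and NUSAP1, a microtubule-binding protein, from 84.5 to 102 FPKM. The top library differed between these genes, being vector 2 for CENPE, KIF2C and TPX2, MRCKα KO for KIF11 and DKO 2 for CENPA, CENPF and NUSAP1.

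Cytokinesis genes are of interest because the ring they build is an actomyosin structure. All 7 lay below both vector libraries in MRCKβ KO by FPKM (6 on the CPM scale). Of 25 other cytokinesis and abscission genes, 10 lay below both and 8 above both, near the 28.8% and 30.4% of all genes. ANLN (anillin), which links actin, myosin and septins in the ring, read 149 (vector 1) and 189 (vector 2), 162 without MRCKα, 142 without MRCKβ, and 156 (DKO 1) and 168 (DKO 2), with a MRCKβ KO read ratio of -0.25 (95% interval -0.29 to -0.21). ECT2, the exchange factor that activates RhoA at the equator, had 86.1 and 92.8 FPKM with the empty vector, 101 without MRCKα, 86.03 without MRCKβ, and 91.8 and 89.96 without both. Its MRCKβ KO value all but equalled vector 1, with a read ratio of -0.03 (95% interval -0.09 to 0.02), while the MRCKα KO value was the highest, with 0.18 (95% interval 0.12 to 0.23). KIF23 and RACGAP1, which together form centralspindlin, ran from 47.5 to 54.8 and from 44.2 to 53.98 FPKM. PRC1, the bundler of midzone microtubules, read 96.6 (vector 1) and 95.3 (vector 2), 95.7 without MRCKα, 88.7 without MRCKβ, and 108 (DKO 1) and 86.4 (DKO 2), so that the DKO libraries stood on either side of all other libraries. KIF14, a midzone kinesin, ran from 18.4 to 22.2 FPKM. KIF20A, another midzone kinesin, ran from 37.4 in MRCKβ KO to 56.2 in DKO 2.

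Of the 12 G1/S and replication genes, 11 lay below both vector libraries in MRCKβ KO and 7 in MRCKα KO (28.8% and 26.7% of all genes). CCNE1, a cyclin that starts S phase, read 5.65 (vector 1) and 11.7 (vector 2), 6.03 without MRCKα, 5.04 without MRCKβ, and 6.17 (DKO 1) and 8.88 (DKO 2), and the vector libraries alone were more than 2-fold apart. CCNE2, its relative, had 16.02 and 15.4 FPKM with the empty vector, 15.6 without MRCKα, 12.7 without MRCKβ, and 13.4 and 12.5 without both, lower in both DKO libraries and in MRCKβ KO than in either vector library. RRM2, the regulated subunit of ribonucleotide reductase, read 82.9 (vector 1) and 140.2 (vector 2), 90.8 without MRCKα, 71.3 without MRCKβ, and 85.1 (DKO 1) and 126 (DKO 2). Vector 2 and DKO 2 stood high together, and the MRCKβ KO read ratio to the pooled vector reads was -0.64 (95% interval -0.71 to -0.58). TYMS (thymidylate synthase) read 132 (vector 1) and 166 (vector 2), 126 without MRCKα, 116 without MRCKβ, and 122 (DKO 1) and 98.8 (DKO 2), below both vector values in all 4 knockout libraries. E2F1, the factor that drives this gene class, ran from 32.9 in MRCKβ KO to 41.9 in vector 2. The MCM genes encode the replicative helicase. MCM7 read 101 (vector 1) and 113 (vector 2), 90.7 without MRCKα, 91.4 without MRCKβ, and 96.4 (DKO 1) and 109 (DKO 2), and MCM2 to MCM6 ranged from 19.8 (MCM6, DKO 1) to 98.8 (MCM3, vector 2). PCNA, the polymerase clamp, overlapped the vector libraries in MRCKβ KO (142 against 135 and 153), with a read ratio of -0.02 (95% interval -0.10 to 0.05).

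**Figure D3:**
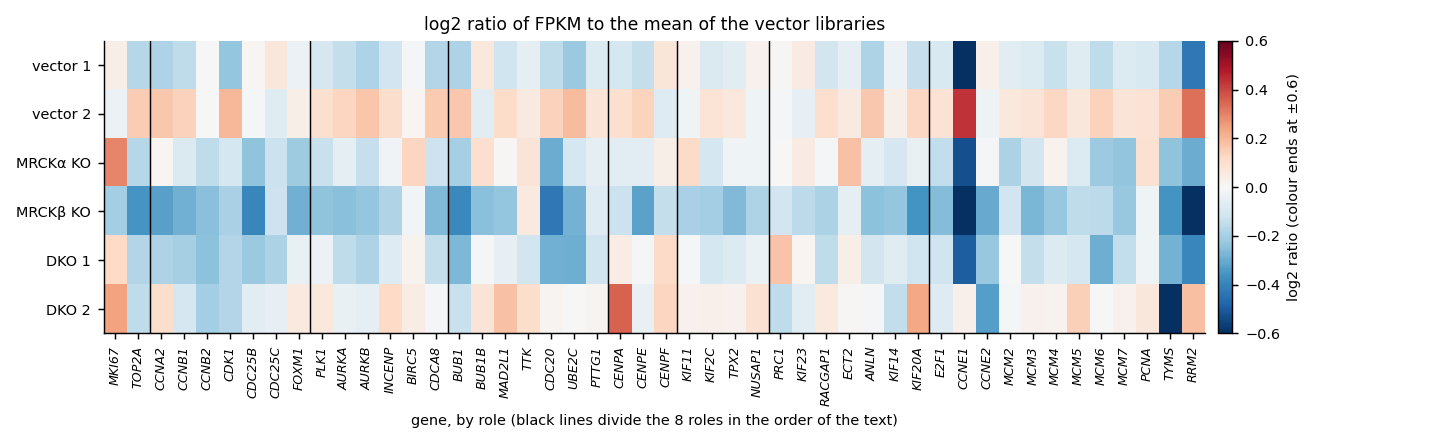
Log2 ratio of FPKM to the mean of the vector libraries for each gene (columns, by role) in the 6 libraries (rows), with the colour scale ending at 0.6 in either direction. The MRCKβ KO row is below 0 for 47 of the 48 genes, where of all genes 6767 were lower and 6886 higher. The rows of vector 2 and vector 1 differ from each other for most genes.

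In MRCKα KO the members' direction depended on the control library. By FPKM 36 of 48 were lower and 12 higher than the vector mean, where of all genes 6469 were lower and 7207 higher. Of 48, 17 lay below and 7 above both vector libraries, against 26.7% and 32.9% of all genes, and the median log2 FPKM ratio was -0.07 (all genes 0.02). The medians were -0.06 for G2/M and -0.17 for G1/S members. The members' median was 0.04 against vector 1 alone and -0.16 against vector 2 alone. For MRCKβ KO the corresponding medians were -0.14 and -0.31, below 0 with either control. Read ratios to the pooled vector reads had 95% intervals wholly below 0 for 22 members and wholly above 0 for 5 in MRCKα KO (17.5% and 21.9% of all genes), and for 42 and 0 members in MRCKβ KO (17.9% and 20.5% of all genes). Against vector 1 alone 5 members had an interval below 0 and 13 above 0 in MRCKα KO, and against vector 2 alone 33 below and 7 above. For MRCKβ KO the counts below 0 were 30 and 44, with 0 above 0 against either. The matching shares of all genes were not computed for each control alone, so these counts have no background. Intervals cover counting error only, not the spread between cultures. The highest MRCKα KO ratios were those of MKI67 (0.27, 95% interval 0.23 to 0.30) and ECT2. Set side by side, MRCKα KO exceeded MRCKβ KO for 44 of 48 members, against 51.6% of all genes. The single knockouts share their control libraries, so their ratios are not independent.

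Replicates of one genotype differed in these same genes. Vector 2 exceeded vector 1 for 37 of 48 members, against 49.1% of all genes, with a median log2 FPKM ratio of 0.18 (all genes -0.01). DKO 2 exceeded DKO 1 for 40 of 48, against 51.7% of all genes, with a median of 0.11 (all genes 0.01). Vector 2 was the highest of the 6 libraries for 27 members, against 19.9% of all genes. Between the vector libraries the largest read ratios belonged to CCNE1 (0.99, 95% interval 0.66 to 1.33) and RRM2 (0.76, 95% interval 0.69 to 0.82), followed at a distance by CDK1 (0.43, 95% interval 0.33 to 0.53) and UBE2C (0.42, 95% interval 0.32 to 0.51). Between the DKO libraries the same leading genes had 0.57 (95% interval 0.50 to 0.64) for RRM2 and 0.54 (95% interval 0.19 to 0.89) for CCNE1, while PRC1 (-0.32, 95% interval -0.40 to -0.24) and TYMS (-0.31, 95% interval -0.40 to -0.22) went the other way. Across the 48 members the ratios of the vector pair and the DKO pair, on the scale of TMM-normalised CPM, had r = 0.57 and rho = 0.41, against r = 0.29 and rho = 0.31 over 13561 genes, and r was 0.32 (rho 0.33, n = 46) without RRM2 and CCNE1. Both ratios hold a library's depth and composition, and genes are not independent replicates. The summed FPKM of the mesenchymal-like markers was higher in the same libraries, 2853 in vector 2 against 2269 in vector 1 and 2566 in DKO 2 against 2183 in DKO 1, with VIM, CD44 and AXL higher and CAV1 and EGFR lower in the second library of both pairs, and its part in the result was not tested. By size, the median difference of MRCKβ KO from the vector mean (-0.23) was near that between the vector libraries (0.18), and its direction was the same against each of them.

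**Figure D4:**
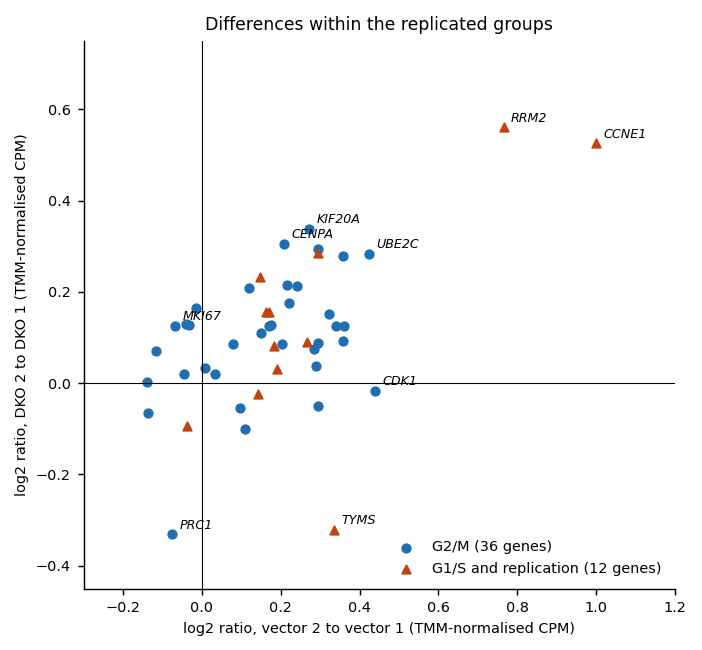
Log2 ratio of TMM-normalised CPM between vector 2 and vector 1 (horizontal axis) against that between DKO 2 and DKO 1 (vertical axis), 1 point per member, with circles for G2/M and triangles for G1/S and replication genes. Of the 48 members 32 are higher in both second libraries, against 4229 of 13561 genes in all, and RRM2 and CCNE1 lie farthest out.

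Loss of both kinases was compared with the vector in 2 libraries each, the only comparison with replicates on both sides. No member passed: edgeR's quasi-likelihood test called 0 of 48 at a Benjamini-Hochberg adjusted p under 0.05, where it called 0 of 13123 genes in all (0.0%). At an unadjusted p under 0.05 stood 1 member (2.08%), against 2.39% of all genes. DESeq2 called 4 genes and limma on log2 FPKM 0, none of them members. The members' median log2 fold change was -0.06, with 12 higher and 36 lower. The median of all genes was -0.00, with 6465 higher and 6658 lower. Without vector 2 the members' median was 0.03 and without vector 1 it was -0.15, so its sign rested on vector 2. Read by FPKM, 5 members lay with both DKO libraries below both vector libraries (CCNB2, CDC25B, KIF14, CCNE2, TYMS) and 3 above (MKI67, BIRC5, CENPF), against 12.2% and 17.0% of all genes. On the scale of TMM-normalised CPM these were 8 and 2, against 2005 and 2002 of the 13764 genes kept.

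TYMS had the lowest p of the members in edgeR's quasi-likelihood test (log2 fold change -0.45, SE 0.17, 95% interval -0.86 to -0.04, unadjusted p = 0.0352), with an adjusted p of 1.00. Its log2 fold change was -0.28 without vector 2, -0.30 without DKO 2, -0.61 without vector 1 and -0.63 without DKO 1. CCNE2 followed (log2 fold change -0.31, SE 0.13, 95% interval -0.62 to 0.01, unadjusted p = 0.0555) and then CCNB2 (log2 fold change -0.25, SE 0.12, 95% interval -0.53 to 0.04, unadjusted p = 0.0796). These 3 share the property that neither vector value overlapped a DKO value. MKI67 had a positive estimate (log2 fold change 0.16, SE 0.12, 95% interval -0.13 to 0.45, unadjusted p = 0.228), which ran from 0.09 to 0.22 with 1 replicate left out. RRM2, whose replicates lay apart in both groups, was estimated at -0.10 with an SE of 0.29 and an interval of -0.79 to 0.59. In contrast, ECT2 was estimated at 0.01 with an SE of 0.11. For 40 of 48 members the 95% interval of the fold change lay within 1.5-fold in either direction, and for 47 within 2-fold, the exception being CCNE1 (-1.14 to 0.63). Changes inside these intervals are not excluded by 2 libraries a group. Of the mitotic entry genes 0 of 7 had a positive estimate, with a median of -0.17, and each of their 95% intervals included 0. Of all 13123 genes tested, 6465 had a positive estimate. The medians of the other roles lay between -0.09 (G1/S) and 0.10 (centromere).

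**Figure D5:**
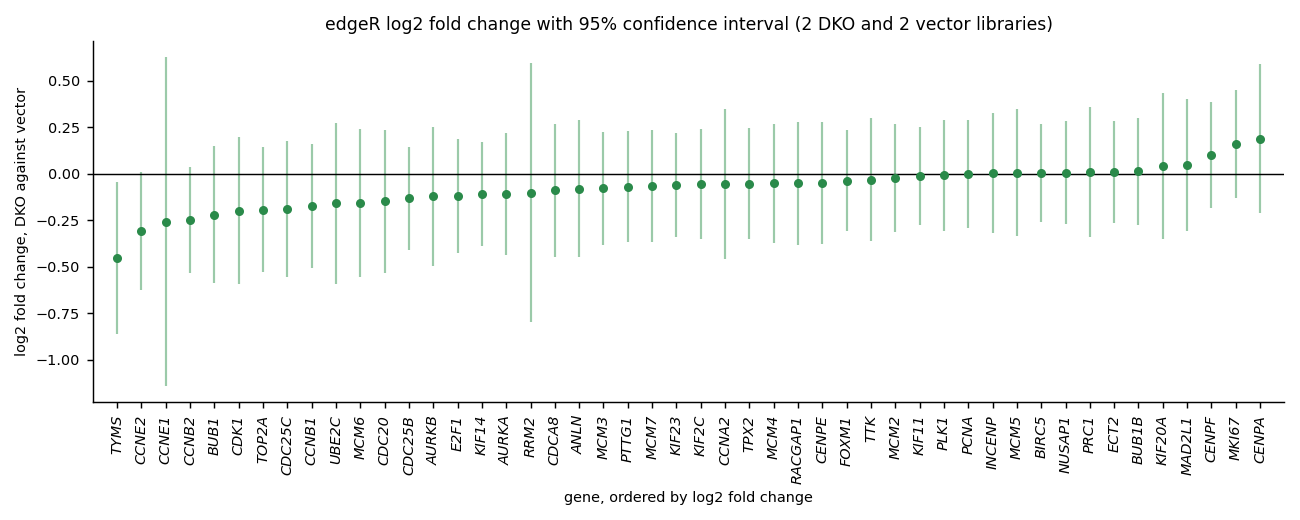
Log2 fold change of DKO against vector for the 48 genes, ordered by that value, with bars for the 95% interval of the edgeR fit. Estimates run from -0.45 (TYMS) to 0.19 (CENPA), and 0 of 48 genes passed the adjusted threshold.

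A fold-change rule like that of the study, which leaves out genes more than 2-fold apart between replicates and asks for a 2-fold change in mean FPKM, selected 0 members in each of the 3 comparisons. Of all genes with a ratio it selected 4.42% after loss of MRCKα, 3.53% after loss of MRCKβ and 1.78% after loss of both. CCNE1 was left out of it, because its vector libraries were too far apart, so that 47 members entered. Against vector 2 alone, CCNE1 was past 2-fold in MRCKβ KO (5.04 against 11.7 FPKM). Its promoter held none of the motifs searched.

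Other genes of the same processes were likewise not called in DKO. Of 209 tested genes in 9 further lists (kinetochore, condensin and cohesin, anaphase-promoting complex, spindle and centrosome, mitotic entry, cytokinesis and abscission, RB and E2F, replication, and G1 cyclins with their kinases and inhibitors), edgeR's quasi-likelihood test called 0, as it called 0 of all 13123 genes. At an unadjusted p under 0.05 stood 1 higher and 2 lower (1.44%, against 2.39% of all genes), so these lists held no excess of such genes. Their median log2 fold change was -0.06, with 78 higher and 131 lower, where all genes had 6465 higher and 6658 lower. The 1 higher gene was MAD1L1, which encodes the MAD1 anchor of MAD2, at 28.4 and 25.5 FPKM in the vector libraries and 34.1 and 36.1 in DKO (log2 fold change 0.35, unadjusted p = 0.042). The lower genes were CDC26, a subunit of the anaphase-promoting complex, at 48.6 and 40.7 against 30.4 and 35.2 FPKM (-0.44, unadjusted p = 0.032), and PRIM1, the small primase subunit, at 22.5 and 24.3 against 17.9 and 17.1 FPKM (-0.44, unadjusted p = 0.022). E2F2, an activator E2F at a low level, had the highest estimate (0.57, SE 0.31), from 1.10 and 1.73 FPKM to 1.94 and 2.50. In MRCKβ KO, 122 of the 209 lay below both vector libraries and 20 above (28.8% and 30.4% of all genes), and in MRCKα KO 44 below and 66 above (26.7% and 32.9% of all genes). The lists differed in MRCKβ KO. Below both lay 24 of 37 kinetochore, 14 of 18 condensin and cohesin, 17 of 25 spindle and 34 of 46 replication genes. The share was smaller for mitotic entry (6 of 13), RB and E2F (6 of 12) and the anaphase-promoting complex (6 of 17). Of 25 cytokinesis and abscission genes 10 lay below and 8 above, and of 16 G1 genes 5 below and 0 above.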

How the data were processed

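RNA was sequenced by BGI on the BGISEQ-500 platform as single-end 50-base reads. The deposited tables hold, per gene and library, expected counts and FPKM, both made by the authors' provider. The submitters' processing notes name Bowtie2, HISAT, RSEM and GRCh38.p11, and their settings are not given in the sources used here. Such estimated counts share reads between near-identical genes. Fold changes held by the authors' own comparisons were not used. FPKM were equal in both tables. The libraries fall into vector, MRCKα KO, MRCKβ KO and DKO by the labels. Expected counts were rounded and DKO was compared with vector by edgeR 4.0.16 (R 4.3.3, filterByExpr, TMM factors, quasi-likelihood test, Benjamini-Hochberg over 13123 genes, threshold 0.05), after the procedure was tested on simulated data. For the CPM scale, TMM factors were made over all 6 libraries and ran from 0.989 to 1.01. Single knockouts were described by FPKM ratios and by exact binomial intervals of reads per total. Places relative to the vector libraries were counted over 13764 genes passing filterByExpr in 6 libraries. Alternatives used DESeq2 1.42.0, limma 3.58.1, other scalings and filters, a replicate block and each replicate left out. All 48 members were eligible to be named, with the 2 genes of lowest p in each further list. The members and lists were chosen with earlier results of these data known. Totals were 10349898 to 10657857 expected counts, and depth enters through counting intervals.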

Additional observations from a re-analysis of the deposited data

Results flagged for a closer look

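For 5 members the single knockouts lay on opposite sides of both vector libraries, MRCKα KO above and MRCKβ KO below. The log2 FPKM ratios to the vector mean in MRCKα KO and MRCKβ KO were 0.29 and -0.20 for MKI67, 0.13 and -0.017 for BIRC5, 0.10 and -0.25 for BUB1B, 0.11 and -0.20 for KIF11, and 0.18 and -0.056 for ECT2. Of all genes 7.44% were placed in this way. BIRC5 and ECT2 rest on near-ties with vector 1 in MRCKβ KO (50.1 against 50.2 and 86.03 against 86.1 FPKM), and on the TMM-normalised CPM scale, chosen after seeing the data, ECT2 dropped out and 4 members remained, against 6.72% of all genes. Each arm has 1 library and both share the same controls, so the difference was not tested.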

How the results depend on the processing

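The count of members called in DKO was 0 under every alternative run. Over all genes the count was 0 with edgeR, 4 with DESeq2, 5 with the replicate number as a block, and 0 to 5 with 1 replicate left out. No label ties the numbers to a batch, and with 2 pairs the block cannot be checked; under it the members' median was -0.06. That median ran from -0.15 to 0.03 with 1 replicate left out (0.03 without vector 2, -0.15 without vector 1). With 1 replicate left out the log2 fold change ran from -0.63 to -0.28 for TYMS, -0.40 to 0.037 for CDK1, -0.67 to 0.33 for CCNE1, -0.43 to 0.33 for RRM2, -0.35 to 0.068 for UBE2C, -0.24 to 0.11 for ANLN, -0.034 to 0.059 for ECT2 and -0.17 to 0.16 for PRC1. TYMS kept its sign, and the others changed sign without vector 2, except ECT2 (without vector 1 or DKO 1), and RRM2 and PRC1 also without DKO 1; the cause was not tested. Members past 2-fold in MRCKβ KO, and past the fold-change rule, numbered 0 to 1, the 1 being CCNE1 without vector 1. The CPM scale was chosen after seeing the data for the places below both vector libraries, which were then 19 in MRCKα KO and 43 in MRCKβ KO. Of the 13764 genes kept, 4005 and 4002 were placed in this way. Depth limits CCNE1 most.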
